A study of Mus musculus with 12 samples.

Results

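The genes described here are 9 genes that mark microvillous and chemosensory tuft cells of the mouse olfactory epithelium: Trpm5, Gnat3, Pou2f3, Chat, Plcb2, Itpr3, Avil, Ascl3 and Foxi1. They were taken by name as the probe sets annotated with exactly 1 of these symbols, and are 9 of the 19938 genes of the array with such an annotation. Each of the 9 had 1 probe set. The study used S100a5-tauGFP mice, whose green fluorescent protein (GFP) reports S100a5, a gene that mature olfactory sensory neurons express when they are active. In all, 18 mice of both sexes, aged 7 to 12 weeks, sat singly in clean air chambers for 40 hours at 3.1 L/min, and from 26 hours on were given pulses of 10 seconds every 20 minutes. Cells of the dissected olfactory mucosa were sorted for GFP, 3 mice to a pool, and RNA of both fractions of each pool was read on Mouse Gene 1.0 ST arrays. The groups were GFP-positive and GFP-negative cells of mice given a citrus accord (5% in the series title), and GFP-positive and GFP-negative cells of mice given the vehicle, filtered air. There were 3 arrays in each group, 12 in all. The pools carried the replicate numbers 2, 3 and 4 for odor and 1, 2 and 4 for vehicle, and values of single arrays are given below in that order. All mice carried the reporter, and the GFP-negative fraction holds every cell that did not pass the GFP gate, neurons included.

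Microvillous cells are non-neuronal cells near the surface of the olfactory epithelium that end in a tuft of microvilli rather than cilia. One kind resembles the tuft cells of the gut and airway: it depends on the transcription factor Pou2f3, carries the signalling chain of taste receptor cells (a G protein, phospholipase C, the IP3 receptor and the channel Trpm5) and makes acetylcholine. Another kind resembles the ionocytes of the airway and is marked by Ascl3 and Foxi1. Plcb2 and Itpr3 are also made by leukocytes, and Trpm5 also by some sensory neurons in mouse.

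All 9 genes differed between the fractions in the same direction, as the values below show, so the promoters of the members were searched on both strands for the octamer core ATGCAAA, the letters that POU class 2 factors such as Pou2f3 bind. Promoters covered 250 bases before to 50 bases after the gene start in RefSeq (build GRCm38.p6), and 8 of the 9 members had an entry, Pou2f3 not among them. The core was present in 3 of the 8, against 4.63% of all 32851 promoters of that length (1520). These 3 are shown with the core in capitals. Avil (chr10:127000459-127000758, + strand) held it in both orientations, beginning 115 and 15 bases before the start. Itpr3 (chr17:27057054-27057353, + strand) held it 26 bases before the start, and Ascl3 (chr7:109731683-109731982, - strand) 38 bases before it.
Avil: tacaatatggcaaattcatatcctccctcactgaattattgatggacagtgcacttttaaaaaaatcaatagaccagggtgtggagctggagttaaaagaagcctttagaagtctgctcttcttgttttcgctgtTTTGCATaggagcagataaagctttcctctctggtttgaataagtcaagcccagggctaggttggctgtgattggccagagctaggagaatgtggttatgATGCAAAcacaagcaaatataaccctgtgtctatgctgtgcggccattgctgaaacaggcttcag
Itpr3: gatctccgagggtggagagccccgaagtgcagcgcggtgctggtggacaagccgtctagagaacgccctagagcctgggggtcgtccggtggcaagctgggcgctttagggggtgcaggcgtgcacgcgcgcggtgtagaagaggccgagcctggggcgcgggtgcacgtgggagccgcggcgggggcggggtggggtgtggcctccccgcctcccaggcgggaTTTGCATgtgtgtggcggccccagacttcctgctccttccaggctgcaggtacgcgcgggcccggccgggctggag
Ascl3: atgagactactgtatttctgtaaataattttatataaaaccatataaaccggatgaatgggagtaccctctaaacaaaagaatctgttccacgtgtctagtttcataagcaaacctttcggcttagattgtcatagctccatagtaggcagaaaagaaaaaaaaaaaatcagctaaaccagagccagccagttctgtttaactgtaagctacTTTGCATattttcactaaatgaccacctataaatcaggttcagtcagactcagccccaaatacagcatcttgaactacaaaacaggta
The forkhead core TGTTTAC, also searched on both strands and which factors of the class of Foxi1 bind, was in 0 of the 8 member promoters, against 3.65% of all promoters (1199). No match of one motif can also be a match of the other. A match describes these letters only and shows no binding.

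The first comparison set GFP-positive against GFP-negative cells of the same pool. All values are log2 intensities as deposited, and each difference is GFP-positive minus GFP-negative from 1 linear model of the 12 arrays in limma with the pool as a block, with p-values adjusted by Benjamini-Hochberg over the 19938 genes and called at 0.05. All 9 genes fell in GFP-positive cells, in odor mice and in vehicle mice, by up to 10.6-fold in odor mice and 9.45-fold in vehicle mice, both for Trpm5. The smallest measured folds, 1.71 and 1.83, were those of Chat, whose low signal in GFP-positive cells makes the size uncertain. Of all genes, 18.5% were called lower in GFP-positive cells with odor and 18.1% with vehicle. The GFP-positive and GFP-negative arrays did not overlap for any of the 9 genes in either treatment, against 20.4% of all genes in odor mice and 22% in vehicle mice. The 9 genes had a median difference of -1.63 with odor and -1.87 with vehicle, beside 0.13 and 0.06 over all genes. In bulk RNA, fewer cells of a type and less RNA per cell cannot be told apart, here or below.

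**Figure D1:**
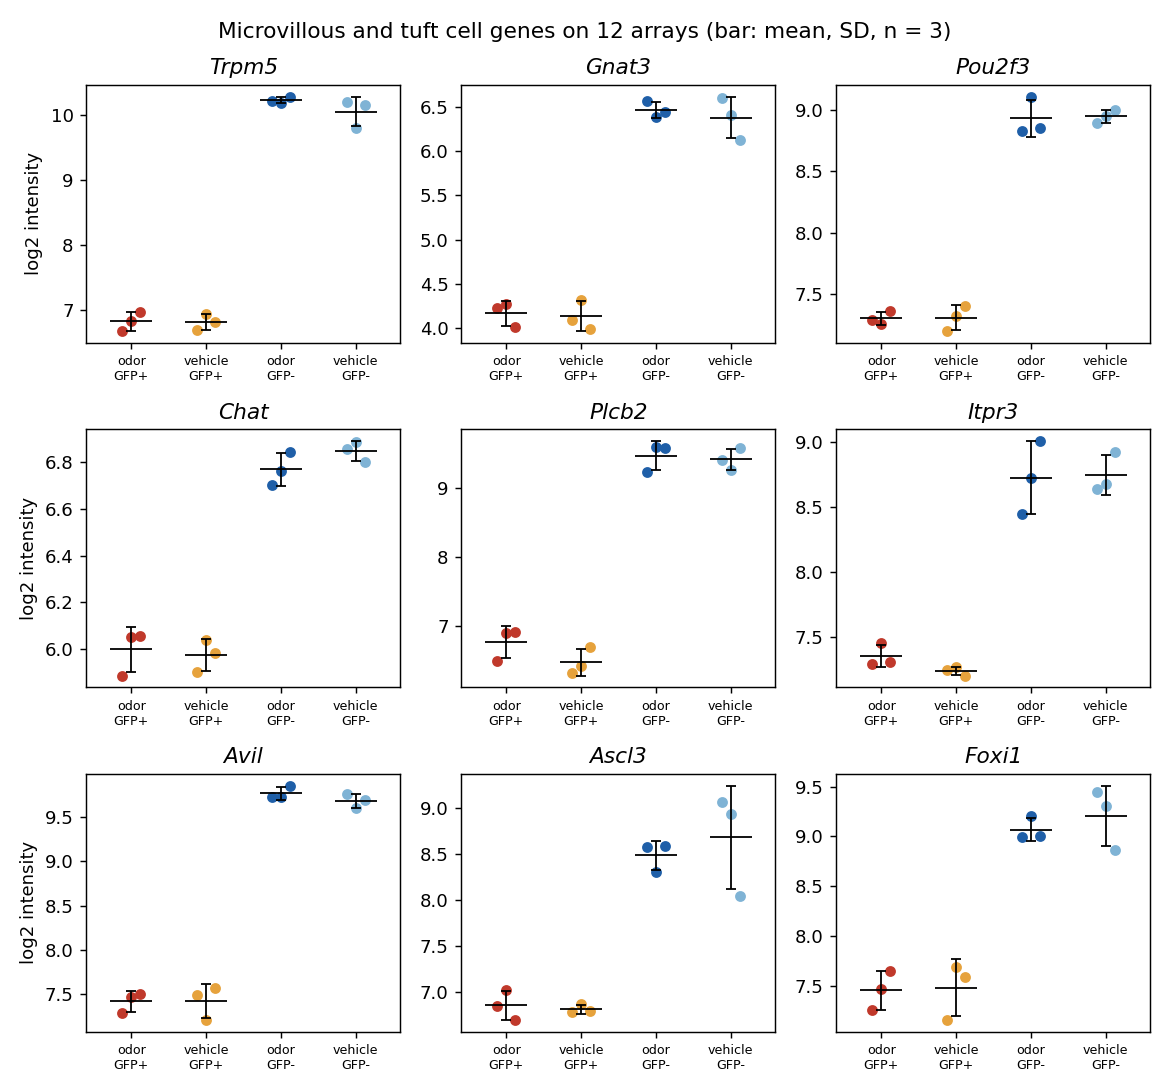
Log2 intensity (vertical axes, a separate scale for each gene) of the 9 genes in the 12 arrays, in 4 groups of 3: odor GFP-positive, vehicle GFP-positive, odor GFP-negative and vehicle GFP-negative; points are arrays, bars the mean and the SD. For every gene the 6 GFP-positive arrays lie below the 6 GFP-negative arrays, and odor and vehicle arrays of a fraction lie at similar levels.

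Among the transcription factors, Pou2f3, which mouse tuft cells and the Trpm5-positive microvillous cells require, read 7.28, 7.26 and 7.36 in odor GFP-positive cells, against 8.83, 9.11 and 8.85 in odor GFP-negative cells. In vehicle mice it read 7.20, 7.32 and 7.40 in GFP-positive cells, against 8.897, 8.950 and 8.999 in GFP-negative cells. Every GFP-positive array was below every GFP-negative array. The difference was -1.63 in odor mice (SE 0.09, adjusted p = 9.2e-07) and -1.64 in vehicle mice (SE 0.09, adjusted p = 1e-06), or 3.10-fold and 3.12-fold lower in GFP-positive cells.

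Ascl3, a basic helix-loop-helix factor that marks a microvillous cell type in mouse, read 6.85, 7.03 and 6.70 in odor GFP-positive cells, against 8.58, 8.31 and 8.59 in odor GFP-negative cells. It read 6.79, 6.87 and 6.80 in vehicle GFP-positive cells, against 9.07, 8.94 and 8.04 in vehicle GFP-negative cells. Vehicle pool 4 was the low array of the GFP-negative cells, yet remained above all GFP-positive arrays. The difference was -1.63 in odor mice (SE 0.19, adjusted p = 0.000124) and -1.87 in vehicle mice (SE 0.19, adjusted p = 5.74e-05), with the largest SE of the 9 genes. Foxi1, a forkhead factor that switches on subunits of the proton pump in ionocytes, read 7.25, 7.47 and 7.65 in odor GFP-positive cells, against 8.997, 9.204 and 9.004 in odor GFP-negative cells. In vehicle mice Foxi1 read 7.16, 7.69 and 7.59 in GFP-positive cells, against 9.45, 9.31 and 8.87 in GFP-negative cells. Here too the fractions were apart in every pool, and vehicle pool 4 was the lowest GFP-negative array. Foxi1 was lower in GFP-positive cells by 3.06-fold in odor mice (-1.61, SE 0.17, adjusted p = 7.23e-05) and by 3.31-fold in vehicle mice (-1.73, SE 0.17, adjusted p = 5.13e-05).

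The 4 genes of the taste-type signalling chain all fell in GFP-positive cells, but by different amounts. Gnat3 encodes gustducin, the G protein subunit that taste and tuft cell receptors act through. It read 4.22, 4.27 and 4.00 in odor GFP-positive cells, against 6.57, 6.39 and 6.45 in odor GFP-negative cells, and 4.09, 4.32 and 3.99 in vehicle GFP-positive cells, against 6.60, 6.41 and 6.13 in vehicle GFP-negative cells. The difference was -2.31 in odor mice (SE 0.10, adjusted p = 3.15e-07) and -2.25 in vehicle mice (SE 0.10, adjusted p = 4.15e-07). The lower quartile of all genes lay between 6.25 and 6.41 on the 12 arrays, so Gnat3 was near it in GFP-negative cells and well below it in GFP-positive cells, and the size of its difference is less certain than its direction.

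Plcb2 encodes the phospholipase C that gustducin signalling activates. It read 6.49, 6.89 and 6.91 in odor GFP-positive cells, against 9.22, 9.60 and 9.58 in odor GFP-negative cells. In vehicle mice it read 6.31, 6.42 and 6.69 in GFP-positive cells, against 9.40, 9.27 and 9.58 in GFP-negative cells. The fractions were separated by more than 2 log2 units in each of the 6 pools. The difference was -2.71 in odor mice (SE 0.08, adjusted p = 2.67e-08) and -2.94 in vehicle mice (SE 0.08, adjusted p = 1.98e-08), or 6.52-fold and 7.68-fold lower in GFP-positive cells. In vehicle pools 1 and 2 the GFP-positive values lay close to the lower quartile of all genes on those arrays (6.26 and 6.31). The size of the difference is therefore less certain than its direction.

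Itpr3, the IP3 receptor that releases calcium in taste cells, read 7.29, 7.45 and 7.31 in odor GFP-positive cells, against 8.45, 8.72 and 9.01 in odor GFP-negative cells. In vehicle mice it read 7.24, 7.26 and 7.20 in GFP-positive cells, against 8.64, 8.68 and 8.92 in GFP-negative cells. The GFP-positive arrays were close to each other and the GFP-negative arrays more spread. Itpr3 was lower in GFP-positive cells by 2.60-fold in odor mice (-1.38, SE 0.12, adjusted p = 1.77e-05) and by 2.85-fold in vehicle mice (-1.51, SE 0.12, adjusted p = 1.07e-05).

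Trpm5, the calcium-gated cation channel at the end of the chain, had the largest measured difference of the 9 genes in both treatments. It read 6.67, 6.82 and 6.96 in odor GFP-positive cells, against 10.22, 10.18 and 10.28 in odor GFP-negative cells, and 6.68, 6.93 and 6.81 in vehicle GFP-positive cells, against 10.19, 9.79 and 10.16 in vehicle GFP-negative cells. Vehicle pool 2 had the smallest gap of the 6 pools, -2.86, and odor pool 2 the widest, -3.55. The difference was -3.41 in odor mice (SE 0.12, 95% interval -3.68 to -3.14, adjusted p = 7.94e-08) and -3.24 in vehicle mice (SE 0.12, 95% interval -3.51 to -2.97, adjusted p = 1.17e-07).

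Chat encodes the enzyme that makes acetylcholine. It read 5.89, 6.05 and 6.05 in odor GFP-positive cells, against 6.70, 6.76 and 6.84 in odor GFP-negative cells, and 5.90, 6.04 and 5.98 in vehicle GFP-positive cells, against 6.85, 6.89 and 6.80 in vehicle GFP-negative cells. In GFP-positive cells it was below the lower quartile of all genes on every array, at values like the means of 24 genes restricted to other organs (6.06 to 6.12 in odor and 6.03 to 6.06 in vehicle GFP-positive arrays). The size of its difference is therefore uncertain and cannot be ranked among the 9. The difference was -0.77 in odor mice (SE 0.07, adjusted p = 3.73e-05) and -0.88 in vehicle mice (SE 0.07, adjusted p = 1.83e-05). Avil encodes advillin, an actin-binding protein of the villin family that is abundant in tuft cells. It read 7.29, 7.47 and 7.51 in odor GFP-positive cells, against 9.72, 9.73 and 9.85 in odor GFP-negative cells, and 7.49, 7.21 and 7.57 in vehicle GFP-positive cells, against 9.75, 9.60 and 9.69 in vehicle GFP-negative cells. Avil was lower in GFP-positive cells by 5.08-fold in odor mice (-2.34, SE 0.08, adjusted p = 7.74e-08) and by 4.77-fold in vehicle mice (-2.25, SE 0.08, adjusted p = 1.06e-07).

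**Figure D2:**
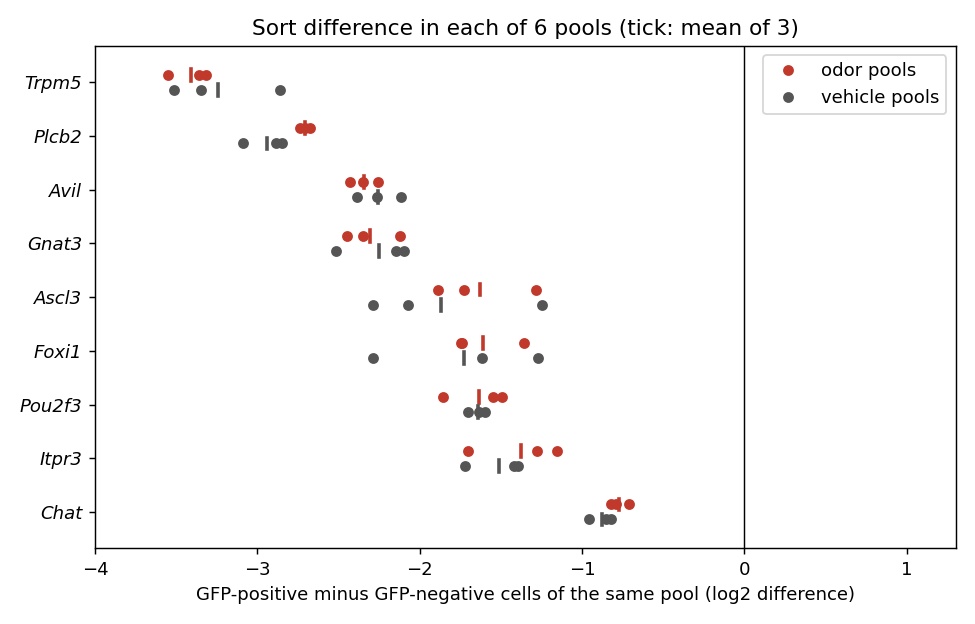
Log2 difference between GFP-positive and GFP-negative cells of the same pool (horizontal axis) for each of the 9 genes, with 3 odor pools and 3 vehicle pools as points and their mean as a tick. All 54 points lie below 0, from -3.55 (Trpm5, odor pool 2) to -0.71 (Chat, odor pool 3), and Ascl3 and Foxi1 are the most spread among the vehicle pools.

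Pool by pool, every gene was lower in the GFP-positive fraction in 6 of 6 pools. The gap was steady for Plcb2, between -2.67 and -2.74 in the odor pools and between -2.85 and -3.09 in the vehicle pools. That of Chat lay between -0.71 and -0.96 over all 6, but its low signal in GFP-positive cells limits what this narrow range shows. The gap varied most for the ionocyte-type factors. Ascl3 differed by -2.29 in vehicle pool 1 but by -1.25 in vehicle pool 4, and Foxi1 by -2.29 and -1.27 in the same pools.

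As a check of the sort, Omp, a marker of mature sensory neurons, was higher in GFP-positive cells by 0.33 in odor mice (SE 0.08, adjusted p = 0.00844) and by 0.31 in vehicle mice (SE 0.08, adjusted p = 0.0107), calls that were lost under cyclic loess scaling (adjusted p = 0.969 and 0.608). The odor call was also lost without pool 3 or 4 (adjusted p = 0.05002 and 0.0623) and the vehicle call without pool 4 (adjusted p = 0.0702). The S100a5 transcript was 0.31 higher in GFP-positive cells of odor mice (SE 0.08, adjusted p = 0.0123), while the value in vehicle mice was 0.19 (SE 0.08, adjusted p = 0.0887). Markers of most other cell types that a GFP-negative fraction can hold moved with the 9 genes, while most of those of horizontal basal cells were not called. All 20 leukocyte markers measured were called lower in GFP-positive cells in both treatments (medians -3.87 in odor and -3.76 in vehicle mice), with list means of 7.33 to 7.61 in odor GFP-positive arrays, against 10.65 to 11.18 in odor GFP-negative arrays. All 10 sustentacular cell markers were called lower too (medians -1.76 and -1.75), as were 9 of 11 markers of Bowman's gland (medians -0.86 and -0.84). Of 7 progenitor markers, 6 were called lower in odor mice and 7 in vehicle mice (medians -1.21 and -1.25), and of 7 horizontal basal cell markers 2 were called lower in each (medians -0.12 and -0.15). Of 12 mature sensory neuron markers, 11 were called higher in GFP-positive cells in each treatment (medians 0.56 and 0.50), or 6 in each under cyclic loess. Under that scaling Stoml3 was called lower in odor mice (-0.22, adjusted p = 0.0281). Of 24 genes restricted to other organs, 0 were called lower in either treatment, and 3 were called higher in odor mice (0 without pool 4, 17 with arrays centred on their median) and 0 in vehicle mice. Over all genes 18.5% were called lower and 32.9% higher in odor mice, and 18.1% lower and 29.7% higher in vehicle mice. The part of these cell types in the differences of the 9 genes was not tested.

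The second question was whether other genes of the same cells and pathways differed between the fractions. Tuft cell genes other than the 9 were split into a list shared with leukocytes and a list of identity and effector genes. The latter list was not cleared of genes that leukocytes also make. Over all genes, 18.5% were called lower in odor and 18.1% in vehicle mice, and 32.9% and 29.7% higher. Of the 15 measured genes shared with leukocytes, 14 were called lower in GFP-positive cells and 0 higher in each treatment (medians -3.42 in odor and -3.37 in vehicle mice). They included Alox5ap (-4.38 and -4.35) and Alox5 (-3.68 and -3.46), which start leukotriene synthesis, Spib (-4.17 and -4.18), an Ets-family transcription factor, and Rgs13 (-4.20 and -3.88), a regulator of G protein signalling. All 4 exceeded the difference of Trpm5 in both treatments.

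Of the 23 measured tuft cell identity and effector genes, 14 were called lower and 1 higher in GFP-positive cells of odor mice, and 15 lower and 1 higher in vehicle mice. The shares over all genes were 18.5% and 18.1% lower and 32.9% and 29.7% higher. With each array centred on its median, 12 and 14 of the list were called lower and 5 and 4 higher. Their medians, -0.49 and -0.50, were closer to 0 than those of the 9 genes. The largest differences were those of Krt18 (-2.50 in odor and -2.45 in vehicle mice), Sox9 (-1.88 and -2.08), Kctd12 (-1.86 and -2.00) and Krt8 (-1.47 and -1.51). Krt18 and Krt8, keratins of simple epithelia, are also sustentacular cell markers, and Sox9 also marks Bowman's gland. Genes named for their role with the values in view were Il17rb (-1.76 and -1.48) and the cytokine Il25 (-0.99 and -1.29), by which tuft cells signal to immune cells in the gut, the transcription factor Gfi1b (-0.92 and -1.30), and the kinase Dclk1 (-0.71 and -0.74), a widely used tuft cell marker. All 4 were called lower in both treatments. The gene called higher with the values as deposited was Inpp5j, an inositol phosphatase (0.55 and 0.46, the call in vehicle mice lost under cyclic loess). Other genes of the list, uncalled as deposited, were called higher in odor mice with each array centred on its median. They were Sucnr1 (0.22), Vil1 (0.22), Ovol3 (0.32) and Ush1c (0.31).

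Of 46 measured partners, mostly bitter and sweet taste receptors, 4 were called lower and 8 higher in GFP-positive cells of odor mice, and 6 lower and 3 higher in vehicle mice, with medians of 0.12 and 0.07. The shares over all genes were 18.5% and 18.1% lower and 32.9% and 29.7% higher. With each array centred on its median, 4 and 3 were called lower and 32 and 18 higher. The list means, 5.54 to 5.61 in GFP-positive and 5.57 to 5.78 in GFP-negative arrays, were below the lower quartile of all genes. Such low signal limits what could be seen to fall. The largest differences were those of Gnai2 (-3.54 and -3.34), an inhibitory G protein subunit, and Plcg2 (-3.15 and -2.88), a phospholipase C of immune receptors, both abundant in leukocytes. The bitter receptor Tas2r108 was called lower in both treatments (-0.52 and -0.65). Entpd2, an ATP-degrading enzyme of the cell surface, was higher in GFP-positive cells (0.52 and 0.43).

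Of 16 other cholinergic genes, 1 was called lower and 4 higher in GFP-positive cells of odor mice, and 1 lower and 3 higher in vehicle mice (medians 0.17 and 0.04). Over all genes 18.5% and 18.1% were called lower and 32.9% and 29.7% higher. With each array centred on its median, 1 and 0 were called lower and 13 and 5 higher. The list means, 6.41 to 6.52 in GFP-positive and 6.21 to 6.43 in GFP-negative arrays, were near the lower quartile of all genes, which limits what could be seen to fall. Slc18a3, the vesicular transporter of acetylcholine (0.14 and -0.02), and Slc5a7, the choline transporter (0.12 and 0.06), did not pass the test in either treatment. The receptor subunits Chrnb2 (0.68 and 0.87) and Chrna10 (0.39 and 0.46) and the esterase Ache (0.54 and 0.33) were higher in GFP-positive cells, and the muscarinic receptor Chrm3 was lower (-0.62 and -0.42). The vehicle calls of Ache and Chrm3 depended on single pools: without pool 1 their adjusted p-values were 0.0601 and 0.0603, and without pool 4 that of Chrm3 was 0.134.

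Of the 23 measured ionocyte and ion transport genes, 13 were called lower and 4 higher in GFP-positive cells of odor mice, and 15 lower and 3 higher in vehicle mice (medians -0.52 and -0.51). The shares over all genes were 18.5% and 18.1% lower and 32.9% and 29.7% higher. Under cyclic loess 0 and 1 of the list were called higher. Stap1 (-3.94 and -4.02) and Hepacam2 (-2.90 and -2.88) fell most, followed by Moxd1 (-1.98 and -1.75) and Coch (-1.60 and -1.55), an extracellular protein of the inner ear. The values of Stap1 were like the medians of the leukocyte markers (-3.87 and -3.76). The part of leukocytes in them was not tested. Cftr, the chloride channel that ionocytes carry, was lower (-1.59 and -1.49), as was Atp6v1b1, a proton pump subunit of acid-secreting cells (-1.50 and -1.36). Both were named for their role with the values in view. Atp6v1a, a pump subunit found in all cells, was higher in GFP-positive cells (0.48 and 0.52), a call lost in odor mice under cyclic loess (adjusted p = 0.0589). Also called higher were Atp6v1e1 and Slc12a2 in both treatments, and the pump subunit Atp6v1g3 in odor mice. Cyclic loess removed the calls of these genes too. Of 6 genes of other microvillous cells, 2 were called lower in odor mice and 3 in vehicle mice. These included the microvillus linker Ezr (-2.33 and -2.28) and the ectoenzyme Nt5e (-1.24 and -1.08), while Trpc6 (0.15 and -0.12) did not pass the test.

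Relatives of the members differed in direction. Itpr2, another IP3 receptor, was lower in GFP-positive cells (-2.55 and -2.48), whereas Plcb3 (0.64 and 0.67) and Plcb4 (0.52 and 0.62), enzymes of the family of Plcb2, were higher. The B cell coactivator Pou2af1 (-3.01 and -2.90) and Pou2f2 (-0.58 and -0.54), a POU factor of lymphocytes, were lower, and Foxj1, the forkhead factor of ciliated cells, was higher (0.66 and 0.62). Gsn, gelsolin, which belongs to the same protein family as Avil, was lower (-0.80 and -0.65).

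**Figure D3:**
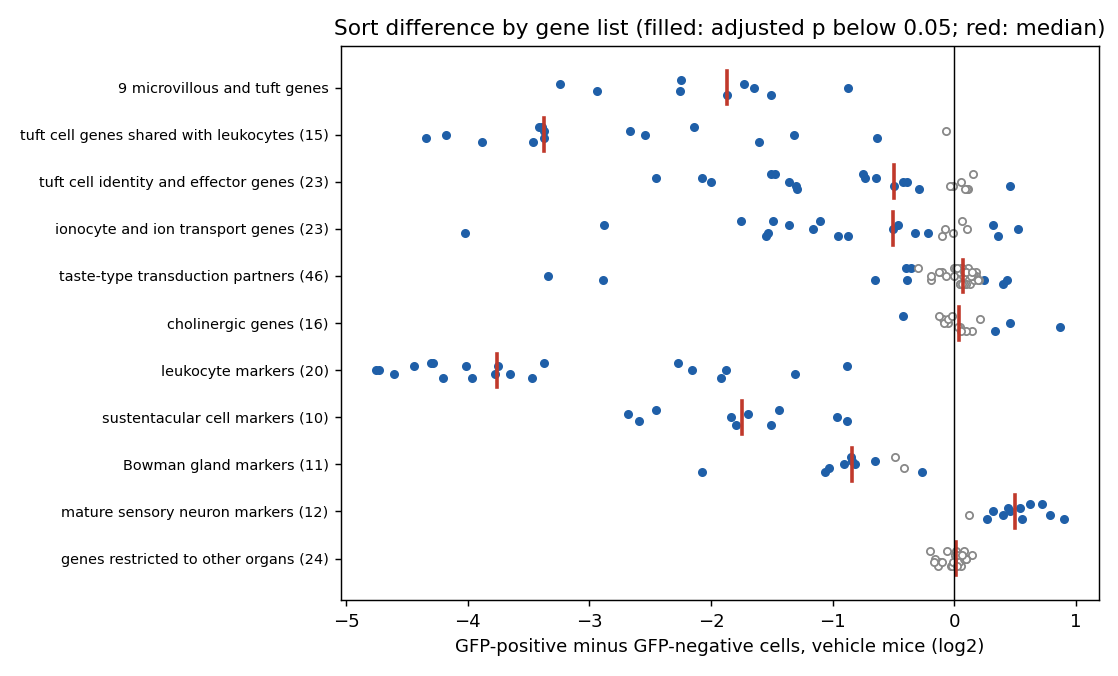
Log2 difference between GFP-positive and GFP-negative cells of vehicle mice (horizontal axis) for each gene of 11 lists, with the number measured in brackets; filled points have an adjusted p below 0.05, open points do not, and red bars are list medians. The 9 genes lie between -3.24 and -0.88, leukocyte markers and the tuft cell genes shared with them lie mostly further left, and the taste-type partners and cholinergic genes, lists of low mean signal, gather near 0.

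The second comparison asked whether the citrus accord changed these genes within a fraction. In GFP-positive cells, 0 of the 9 genes were called, where the share over all genes was 0.00502% (1 gene) and 1.3% had an unadjusted p below 0.05. Odor minus vehicle ranged from -0.03 (Foxi1) to 0.29 (Plcb2), with a median of 0.02 and an adjusted p of 1.00 throughout. Plcb2 averaged 6.76 ± 0.24 in odor and 6.47 ± 0.20 in vehicle GFP-positive cells (SD, n = 3 each), and its difference of 0.29 (SE 0.14, 95% interval -0.03 to 0.60) had an unadjusted limma p of 0.0682. The odor arrays at 6.49, 6.89 and 6.91 overlapped the vehicle arrays at 6.31, 6.42 and 6.69. Itpr3 alone had groups that did not overlap, all 3 odor arrays being above all 3 vehicle arrays (difference 0.11, SE 0.12). Over all genes 7.93% had groups that did not overlap. The intervals of the 9 genes reached from -0.41 (Ascl3) to 0.60 (Plcb2), so changes of up to 1.52-fold in GFP-positive cells lie within them.

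In GFP-negative cells, 0 of the 9 genes were called, 0 had an unadjusted p below 0.05, and 0% of all genes were called, while 6.53% (1301 genes) had an unadjusted p below 0.05. The differences ranged from -0.19 (Ascl3) to 0.18 (Trpm5), with a median of -0.02 and adjusted p-values of 0.752 and above. Trpm5 averaged 10.23 ± 0.05 in odor and 10.05 ± 0.22 in vehicle GFP-negative cells (SD, n = 3 each), and the lower vehicle mean came with pool 2 at 9.79. Without that array its difference was 0.05. Ascl3 averaged 8.49 ± 0.16 in odor and 8.69 ± 0.56 in vehicle GFP-negative cells, the widest spread of any of the 9 genes in any group. Its difference was -0.52 without vehicle pool 4 and -0.0009 without vehicle pool 1, and was uncalled, as it was in all 16 alternatives tried (adjusted p 0.606 and above). The groups overlapped for all 9 genes, where 7.44% of all genes had groups that did not. The intervals reached from -0.65 (Ascl3) to 0.43 (Trpm5), so a 1.57-fold decrease of Ascl3 and a 1.34-fold increase of Trpm5 lie within them.

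**Figure D4:**
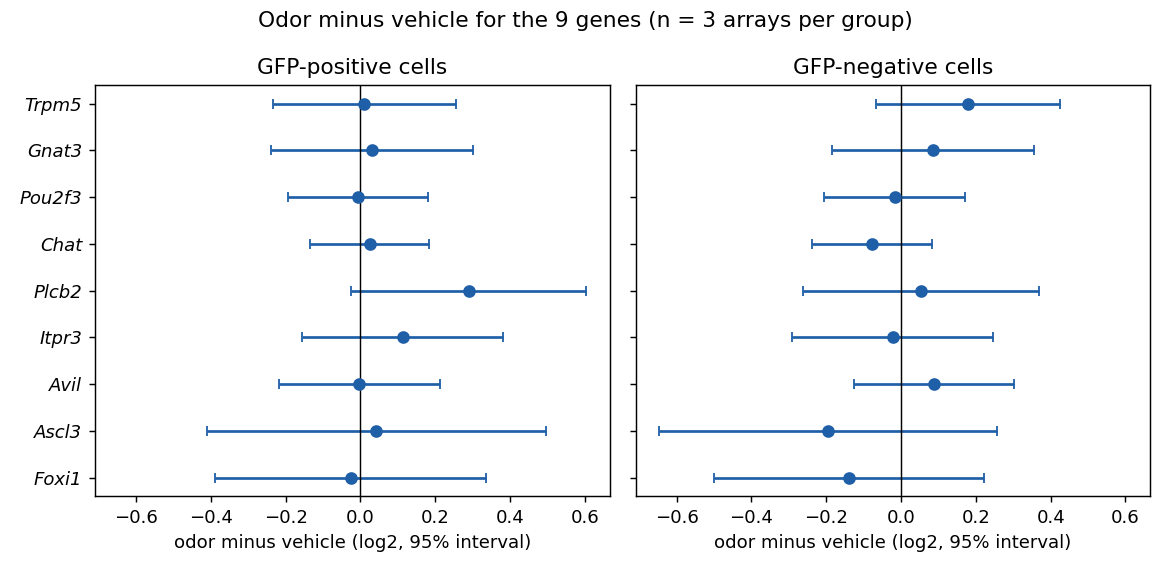
Odor minus vehicle (log2, horizontal axis) with its 95% interval for the 9 genes in GFP-positive cells (left) and GFP-negative cells (right), 3 arrays per group. Every interval includes 0, and the widest are those of Ascl3.

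The last comparison asked whether the gap between the fractions differed between treatments, as the difference in odor mice minus the difference in vehicle mice. Of the 9 genes 0 were called, as was 0% of all genes in limma, where 4.67% (932 genes) had an unadjusted p below 0.05 and the smallest adjusted p of any gene was 0.0526. The values ran from -0.17 (Trpm5, SE 0.17) to 0.24 (Ascl3, SE 0.26). Both extremes rested on single pools: Trpm5 gave -0.30 without vehicle pool 1 and 0.02 without vehicle pool 2, and Ascl3 gave 0.03 without vehicle pool 1 and 0.55 without vehicle pool 4. Plcb2 had the smallest unadjusted limma p of the 9, 0.0595, with a value of 0.24 (SE 0.11, 95% interval -0.01 to 0.48, adjusted p = 0.917). Its gap was -2.74, -2.71 and -2.67 in the odor pools and -3.09, -2.85 and -2.89 in the vehicle pools. The share of all genes whose odor and vehicle gaps lie as far apart was not computed, so these values show no shift. The lists of related genes had 0 called genes in either odor comparison. For each of the 9 genes the order of the groups was therefore both GFP-negative groups above both GFP-positive groups, and no difference between the odor and vehicle groups of a fraction passed the test.

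The 9 genes did not vary as one among the GFP-negative arrays. Itpr3 was lowest in odor pool 2 and highest in odor pool 4 (8.45, 8.72 and 9.01), and highest in vehicle pool 4 of the vehicle pools (8.64, 8.68 and 8.92). The mean of the 20 leukocyte markers ran in the same order within each treatment, at 10.65, 10.98 and 11.18 in odor and 10.64, 10.71 and 10.94 in vehicle GFP-negative arrays. Plcb2 was also lowest in odor pool 2 (9.22) and, among the vehicle pools, highest in pool 4 (9.58). It did not follow the full order, as odor pool 3 (9.60) was above pool 4 (9.58) and vehicle pool 1 (9.40) above pool 2 (9.27). The part of leukocytes in this spread was not tested. Ascl3, Foxi1 and Gnat3 ran another way: each was highest of all 6 GFP-negative arrays in vehicle pool 1 (9.07, 9.45 and 6.60) and lowest in vehicle pool 4 (8.04, 8.87 and 6.13). The mean of the 10 sustentacular cell markers was 10.11 in vehicle pool 4 and 10.32 in vehicle pool 1, with its lowest value, 10.09, in odor pool 2. Over the 6 GFP-negative arrays, Pearson's r between pairs of the 9 genes ran from -0.62 (Gnat3 with Itpr3) to 0.86 (Trpm5 with Avil), with 0.81 for Ascl3 with Foxi1 and 0.80 for Plcb2 with Itpr3. Many other genes had a higher r. Among 18263 genes, Avil ranked 80 for Trpm5, Foxi1 515 for Ascl3 and Itpr3 995 for Plcb2. In the other direction, Trpm5 ranked 181 for Avil, Ascl3 205 for Foxi1 and Plcb2 1128 for Itpr3. These are descriptions over 6 arrays that share a scale and 2 treatments.

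**Figure D5:**
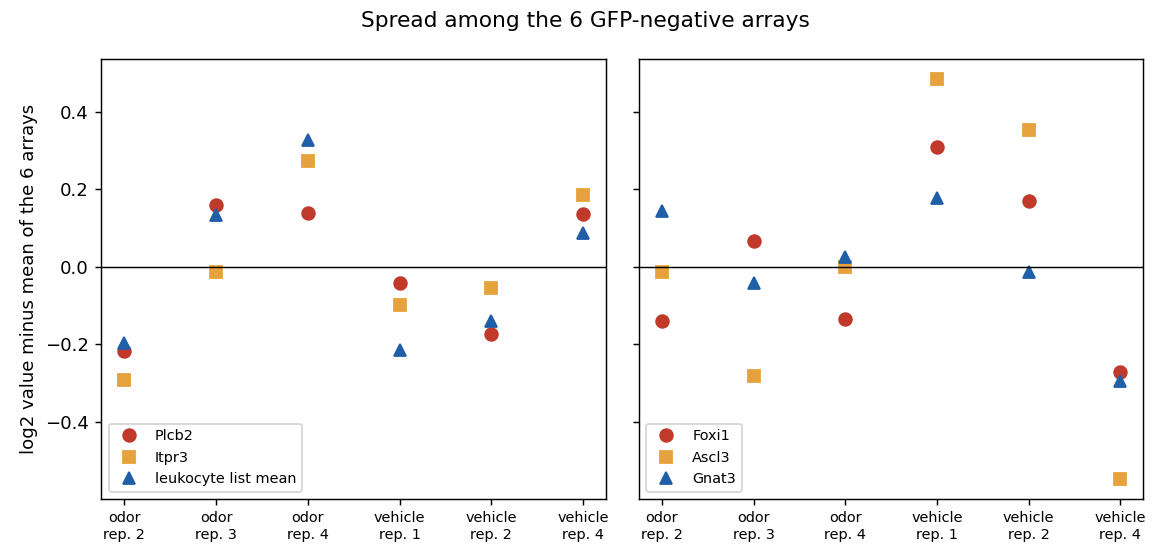
Log2 value minus the mean of the 6 GFP-negative arrays (vertical axis) in each of these arrays, by treatment and replicate number. Left, Plcb2, Itpr3 and the mean of the 20 leukocyte markers, all low in odor replicate 2 and above 0 in odor replicate 4 and vehicle replicate 4; right, Foxi1, Ascl3 and Gnat3, all highest in vehicle replicate 1 and lowest in vehicle replicate 4.

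The genes whose pattern over the 12 arrays was most like each member were found by Pearson's r among 18263 genes. Because the arrays fall into the 2 fractions, r mostly reflects how cleanly a gene separates them. Trpm5 was closest to Atp2a3 (0.998), Alox5 and Sh2d7. Sh2d7 was also among the closest 3 to Pou2f3 (0.996, with Rac2 and Ly6e) and to Avil (0.997, with Vav1 and Fxyd5). Gnat3 was closest to Slc5a8 (0.999), Chil6 and Tspan8, and Chat to Mylip (0.997), Acap1 and Spib. Plcb2 was closest to Ceacam1 (0.998), Hcar2 and Itgb2, and Itpr3 to Rflnb (0.997), Pilrb2 and Irf1. Foxi1 was closest to Moxd1 (0.992), a gene of the ionocyte list, then to Acnat1 and to the member Chat (0.985). Of the genes named before, Alox5, Vav1 and Spib are in the list of tuft cell genes shared with leukocytes. Rac2 is in the list of leukocyte markers. Ascl3 was closest to Olfr19 (0.994), Fmo1 and Olfr1434, and the lowest r of any pair of members was that of Ascl3 with Itpr3 (0.925).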

How the data were processed

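The deposited log2 intensities per probe set came from Affymetrix Expression Console, a step known only per the submitters' processing notes. Its version and summarisation are not stated there, and the values (2.42 to 14.1) fit a log2 scale. They were used as deposited. Of 35556 probe sets, 21789 had 1 symbol, 1621 several and 12146 none in the annotation used; the highest-mean probe set per gene gave 19938 genes. Intensities give no depth, so the number of arrays limits the precision.

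Odor and vehicle were compared in limma 3.58.1 (R 4.3.3) over 4 groups without a block. Fractions and the interaction were fitted with the pool as a block, since titles and the number of mice (18, 3 to each of 6 pools) tie both fractions to a pool; deviations of paired fractions correlated at 0.0732 to 0.252. The labels name pools of different mice as replicates. Tests were moderated, two-sided and adjusted by Benjamini-Hochberg at 0.05; the script was tested on simulated data. The genes and lists were chosen with earlier results of these data known. By rule the text names all 9 genes, up to 4 genes of a list with the largest difference in vehicle mice among those called in both treatments, the 3 most alike genes, S100a5 and Omp. Other genes, such as Inpp5j, Slc18a3, Slc5a7, Atp6v1a and Trpc6, were named outside this rule. Alternatives covered scaling, a filter on low genes, probe set choice, array weights, blocks and left-out replicates.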

Additional observations from a re-analysis of the deposited data

How the results depend on the processing

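All 9 genes were called lower in GFP-positive cells under every alternative tried in both treatments, except that the filter on low genes left Gnat3 out and called 8 of 8; without the replicate block 9 and 9 were called. None of the 9 was called in either odor comparison or in the interaction under any alternative, and replicate blocks by title number, code number or random pool (correlation 0.11) changed no call. Code numbers gave r of 0.185 to 0.309 between same-numbered GFP-positive arrays but -0.206 to 0.439 between GFP-negative ones, and title numbers -0.171 to 0.281, so they were not used as pairs. Differences near 0 changed sign in 26 of 143 odor values in GFP-positive cells, 14 of 143 in GFP-negative cells and 10 of 116 of the interaction. Scaling moved the median of all genes between fractions from 0.13 in odor mice to 0.00 under cyclic loess and 0.27 with median centring (0.06, -0.00 and 0.20 in vehicle mice), and the share of calls that were lower from 36.0% to 57.6% and 20.9% (37.8%, 55.7% and 23.8% in vehicle mice). Under cyclic loess Gnb1 (-0.065), Gnal (-0.068) and Stoml3 (-0.22) reversed in odor mice, and of these only Stoml3 was then called. The cause was not tested. Over all genes, odor against vehicle in GFP-negative cells called 15, 3 and 1 genes without odor replicates 2, 3 and 4, against 0 with all arrays; in GFP-positive cells the 1 call was lost in 7 alternatives, and the interaction called 1 or 2 genes in 6. Signal over background limits Gnat3 and Chat in GFP-positive cells, and may limit Plcb2 there.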
